A study of Mus musculus with 3 samples.

Results

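The epidermal growth factor (EGF) and platelet-derived growth factor (PDGF) families are described here by 9 genes, 6 ligands and 3 receptors, among the 31053 mouse genes counted in each of 3 single-cell RNA libraries. The EGF-family ligands were *Hbegf*, *Areg*, and *Ereg*, and their receptor was *Egfr*. The PDGF ligands were *Pdgfa*, *Pdgfb*, and *Pdgfc*, and their receptors were *Pdgfra* and *Pdgfrb*. All 9 symbols were found in all 3 libraries. The ligands were chosen by their measured levels in myeloid cells, both in cultures given vitamin D3 against untreated ones and in a skin graft. The receptors were chosen by their levels in graft fibroblasts. The values of these genes in those comparisons are therefore a description, and none of them was tested.

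EGF-family ligands are made as membrane-bound precursors, and proteases called sheddases cut them free so that they can bind EGFR on the same or a nearby cell. PDGF chains join into dimers that bind PDGFRA and PDGFRB, and fibroblasts, pericytes, and smooth muscle cells answer them by dividing and migrating. In skin wounds macrophages are a known source of both families, and keratinocytes, fibroblasts, and vessel-associated cells are known targets.

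The study compared cells cultured from mouse bone marrow with cells recovered from skin that had been transplanted across species. For Co-Mac, marrow cells of C57/BL6 mice were grown with the growth factor GM-CSF for 7 days and got no treatment. VD-Mac cells were grown in the same way, and vitamin D3 in its active form (1,25-dihydroxycholecalciferol, 1 μM) was added for 24 h. The third library (hSTSG) held cells recovered from human split-thickness skin grafts that had lain under the skin of mice (C57BL6/J, wild-type) until day 14. The study reported that human DNA in such grafts had fallen by several orders of magnitude by then, and took the cells present as murine. This library pooled 5 mice, with no map from cells to mice, and human genes were not counted. The labels give no ages, and there was 1 library per condition, so cells are not replicates, no p-value is given, and treatment and library cannot be told apart.

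RNA molecules were counted by unique molecular identifiers (UMIs). Gene UMIs came to 136905324 over 7866 barcodes in Co-Mac, 124731240 over 9794 in VD-Mac, and 24472168 over 2644 in hSTSG. Barcodes with at least 300 genes, under 100000 gene UMIs, and under 10% mitochondrial UMIs were kept as cells, which left 7257, 8825, and 2144. The kept cells had a median of 15804 UMIs in Co-Mac, 12089 in VD-Mac, and 6637.5 in hSTSG. Levels are given in CPM, the field's usual unit in which a gene's UMIs are scaled to a common total of gene UMIs in the same cells, with a 95% exact Poisson interval. Ratios have exact conditional binomial intervals and shares of cells Clopper-Pearson intervals, and all of these cover counting error only. For a level or share of 0 the limit given is instead that of 3 counts, and for shares it bounds the cells with a UMI. Kept cells of Co-Mac and VD-Mac had 15 barcodes in common, those of Co-Mac and hSTSG 3, and those of VD-Mac and hSTSG 6. No doublets were removed in the main analysis. The automatic threshold of scrublet called 1, 0, and 8 cells, whereas the expected rate gives 457, 691, and 45. These calls therefore do not show that doublets were few. Leaving out the expected number of cells with the highest scores was run as an alternative.

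The libraries were checked against cell type markers. All 10 macrophage markers were detected in both cultures, with a summed level of 1021 CPM in Co-Mac and 1181 CPM in VD-Mac. Markers of mature dendritic cells (DC) came to 2631 and 2879 CPM and those of neutrophils to 5107 and 5940 CPM, so the cultures labelled as macrophages held several cell types. Monocyte markers differed more between them, with 972 CPM in Co-Mac and 130 CPM in VD-Mac. In the graft, 8 of 8 fibroblast markers reached 10297 CPM, whereas 5 of 6 keratinocyte markers summed to 8.88 CPM. *Cyp24a1*, a vitamin D target picked as a treatment check after its values were seen, had 1 UMI in Co-Mac, 314.8 CPM in VD-Mac, and 0 UMIs in hSTSG.

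Clustering of each library on its own gave 12 clusters in Co-Mac, 12 in VD-Mac, and 13 in hSTSG, named by marker sets with the ending "-like". Clusters of the cultures were matched by shared leading genes into 11 pairs, which held 91.5% of Co-Mac cells and 99.4% of VD-Mac cells. When both cultures were clustered together, 9 of 15 clusters drew 90% or more of their cells from 1 library, and these held 13185 of 16082 cells.

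*Hbegf* (ENSMUSG00000024486; chromosome 18, 36504927 to 36515805, minus strand; all positions on GRCm38) encodes heparin-binding EGF-like growth factor, which binds EGFR and ERBB4. It was counted at 575 UMIs in Co-Mac, 4.34 CPM (3.99 to 4.71). In VD-Mac it had 8648 UMIs, 74.3 CPM (72.7 to 75.8). In hSTSG it had 9133 UMIs, 403 CPM (395 to 412). The level thus rose from Co-Mac through VD-Mac to the graft, with no overlap of the intervals. The ratio of VD-Mac to Co-Mac was 17.1, or 4.10 on the log2 scale (3.98 to 4.22), which ranked 6 among the 7732 genes with at least 10 CPM in either culture. *Hbegf* reached that minimum in VD-Mac and not in Co-Mac.

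*Areg* and *Ereg* (ENSMUSG00000029378 and ENSMUSG00000029377) encode amphiregulin and epiregulin, ligands of EGFR. *Areg* had 33 UMIs in Co-Mac (0.249 CPM), 7 in VD-Mac (0.0601 CPM), and 2531 in hSTSG (112 CPM; 107 to 116). *Ereg* had 3 UMIs in Co-Mac, 3 in VD-Mac, and 442 in hSTSG (19.5 CPM; 17.7 to 21.4). Both were thus near 0 in the cultures with and without vitamin D3, and both were counted almost wholly in the graft. Between the cultures *Areg* fell by 2.05 on the log2 scale, with an interval from -3.47 to -0.85, but it stayed under the minimum level in both.

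*Pdgfa* (ENSMUSG00000025856) and *Pdgfb* (ENSMUSG00000000489) encode the PDGF A and B chains. *Pdgfa* had 1842 UMIs in Co-Mac, 13.9 CPM (13.3 to 14.5). In VD-Mac it had 15311 UMIs, 131 CPM (129 to 134), and in hSTSG 1194 UMIs, 52.7 CPM (49.8 to 55.8). Unlike *Hbegf*, *Pdgfa* was therefore highest in VD-Mac, with the graft between the cultures. Its ratio of VD-Mac to Co-Mac was 9.46, a log2 ratio of 3.24 (3.17 to 3.31) that ranked 9 of 7732. *Pdgfb* stood at 12.8 CPM in Co-Mac (1693 UMIs; 12.2 to 13.4), 42.9 CPM in VD-Mac (4994 UMIs; 41.7 to 44.1), and 22.2 CPM in hSTSG (503 UMIs; 20.3 to 24.2). It kept the same order of the libraries as *Pdgfa* with a smaller ratio of 3.36, or 1.75 on the log2 scale (1.67 to 1.83), at rank 57.

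*Pdgfc* (ENSMUSG00000028019) encodes a PDGF chain that is secreted in a latent form and binds PDGFRA once cut. It had 197 UMIs in Co-Mac (1.49 CPM), 54 in VD-Mac (0.464 CPM), and 453 in hSTSG (20.0 CPM; 18.2 to 21.9). In contrast to the other PDGF chains it was lower with vitamin D3, by a log2 ratio of -1.68 (-2.14 to -1.24), below the minimum level in both cultures.

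Receptor transcripts were scarce in the cultures. *Egfr* (ENSMUSG00000020122), the receptor of the EGF-family ligands named above, had 80 UMIs in Co-Mac (0.603 CPM), 30 in VD-Mac (0.258 CPM), and 881 in hSTSG (38.9 CPM; 36.4 to 41.6). *Pdgfra* (ENSMUSG00000029231), the receptor for A, B, and C chains, had 1 UMI in each culture and 1152 in hSTSG (50.9 CPM; 48.0 to 53.9). *Pdgfrb* (ENSMUSG00000024620; chromosome 18, 61045150 to 61085061, plus strand), which binds mainly the B chain, had 28 UMIs in Co-Mac, 9 in VD-Mac, and 572 in hSTSG (25.3 CPM; 23.2 to 27.4). All 3 receptors were thus counted mainly in the graft. Between the cultures the log2 ratio was -1.23 for *Egfr* (-1.88 to -0.61) and -1.45 for *Pdgfrb* (-2.72 to -0.33), both under the minimum level.

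The call for a change was set at a ratio of 2 in either direction, for genes whose higher library had 10 CPM or more, and a count of 0 was taken as 3 UMIs for the call. Of the 9 members 3 reached that level in a culture, and these 3, *Hbegf*, *Pdgfa*, and *Pdgfb*, were called, all higher in VD-Mac. Of all 7732 genes with the minimum level 525 were called (6.79%), and 167 of them were higher in VD-Mac (2.16%). Nothing is read from this difference, because the same contrast chose the ligands. Without the barcodes found in more than 1 library, the log2 ratios were 4.10 for *Hbegf*, 3.25 for *Pdgfa*, and 1.75 for *Pdgfb*. With no minimum level 7 members were called, since *Areg*, *Egfr*, *Pdgfc*, and *Pdgfrb* were then lower in VD-Mac, and of all 19719 genes with a UMI in either culture 3185 were called (16.2%).

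**Figure D1:**
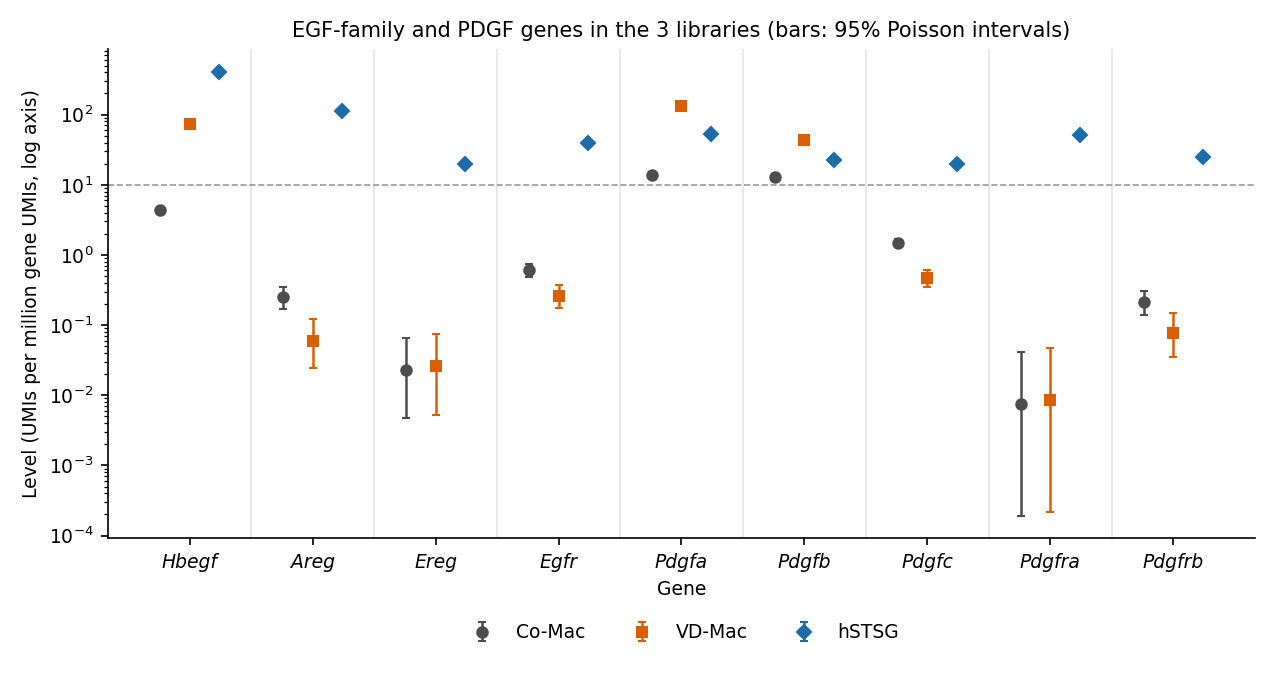
Level of each of the 9 genes in CPM on a log axis in Co-Mac, VD-Mac, and hSTSG, with 95% counting intervals and a dashed line at 10 CPM. *Hbegf* stood at 4.34, 74.3, and 403 CPM, and *Pdgfa* at 13.9, 131, and 52.7 CPM.

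Within the cultures the ratios were read again inside pairs of clusters, whose sides can still differ in make-up. The macrophage-like clusters were matched on 2 shared leading genes, *Fn1* and *Pf4*, the fewest allowed for a pair. In the pair of macrophage-like clusters, Co-Mac cluster 3 with 987 cells and VD-Mac cluster 4 with 1114 cells, *Hbegf* rose from 4.77 CPM (3.90 to 5.78) to 152 CPM (146 to 158). *Pdgfa* rose there from 17.0 CPM (15.3 to 18.9) to 293 CPM (285 to 301). The log2 ratios were 4.99 for *Hbegf* (4.71 to 5.29) and 4.11 for *Pdgfa* (3.95 to 4.26), both larger than over all cells. *Pdgfb* went from 20.0 to 33.9 CPM in the same pair, a log2 ratio of 0.76 (0.58 to 0.94), and fell short of the call, but it was called at clustering resolution 0.8 with a log2 ratio of 1.21. So 2 members, *Hbegf* and *Pdgfa*, were called higher in this pair, where 366 of 7548 genes were called higher (4.85%), and again nothing is read from the comparison. *Pdgfc* fell in the pair from 35 UMIs (1.61 CPM) to 1 UMI (0.0561 CPM), a log2 ratio of -4.84 with a wide interval (-10.18 to -2.27), below the minimum level.

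The macrophage markers of these clusters were read as a check, and 10 of 10 were detected in each, with a summed level of 2367 CPM in the Co-Mac cluster and 2804 CPM in the VD-Mac cluster and *C1qb* as the most abundant. The 10 leading genes of the VD-Mac cluster, however, held 0 of these markers and 1 of monocytes (*Fn1*), and those of the Co-Mac cluster 1 of each, so the name of the VD-Mac cluster rests on the summed score. Monocyte markers fell within the pair, from 1741 to 271 CPM. After thinning each cell to 2000 UMIs, with cells under that number left out, *Hbegf* was found in 11 of 987 cells of the Co-Mac cluster (1.11%) and in 288 of 1113 of the VD-Mac cluster (25.9%; 23.3 to 28.6). Unthinned, at medians of 20289 and 14672 UMIs, 8.11% and 79.8% of the cells held it. *Pdgfa* was found in 35 of 987 thinned cells (3.55%) and 385 of 1113 (34.6%), or in 23.4% and 78.2% without thinning. The shares of both genes rose together with their levels, so more cells carried a UMI. Among neutrophil-like cells of VD-Mac, cluster 5 with a median of 2602 UMIs, *Pdgfa* was found in 10 of 680 thinned cells (1.47%) and in 2.76% without thinning.

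In the mature DC-like clusters the order of the PDGF chains was different. In Co-Mac cluster 1 and VD-Mac cluster 0, *Pdgfb* rose from 14.3 CPM (12.8 to 16.0) to 60.6 CPM (57.9 to 63.4), a ratio of 4.22. *Pdgfa* rose from 18.1 to 37.8 CPM there, a ratio of 2.09 (1.87 to 2.34). In Co-Mac cluster 0 and VD-Mac cluster 1 the ratios were 3.35 for *Pdgfb* (2.95 to 3.80) and 2.54 for *Pdgfa* (2.17 to 3.00). The ratio of *Pdgfb* was thus above that of *Pdgfa* in both mature DC-like pairs, with overlapping intervals in the latter, and below it in the macrophage-like pair. *Hbegf* rose in these pairs from 0.728 to 21.6 CPM and, on 3 UMIs in Co-Mac, from 0.170 to 14.4 CPM with a log2 ratio of 6.41 (4.84 to 8.69). Its levels in mature DC-like cells of VD-Mac stayed below those in the macrophage-like cluster, without overlap of the intervals.

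Cycling cells, marked by *Mki67* and *Top2a* in Co-Mac cluster 2 (macrophage-like) and VD-Mac cluster 3 (unnamed), kept the order of the 3 ratios found in the macrophage-like pair, but the sides of this pair differ. Neutrophil precursor markers came to 44.4 CPM in the Co-Mac cluster and 615 CPM in the VD-Mac cluster, while the neutrophil precursor-like cluster of Co-Mac (615 cells) had no partner, and macrophage markers came to 1529.7 and 2254 CPM. The part of this in the ratios was not tested. *Hbegf* rose there from 6.51 to 133 CPM, a ratio of 20.4 (18.0 to 23.3). *Pdgfa* rose from 14.7 to 227 CPM, a ratio of 15.5 (14.3 to 16.9), and *Pdgfb* from 10.5 to 24.3 CPM, a ratio of 2.31 (2.04 to 2.62). In DC-like cells, Co-Mac cluster 9 and VD-Mac cluster 8, *Hbegf* went from 2 UMIs to 165 UMIs (103 CPM), a log2 ratio of 5.89 (4.01 to 8.95). In neutrophil-like cells, Co-Mac cluster 6 and VD-Mac cluster 5, it rose from 8.82 to 45.7 CPM, a ratio of 5.18 (2.81 to 10.6). *Pdgfa* had 0 UMIs in the Co-Mac cluster of that pair and 31 UMIs (9.50 CPM) in the VD-Mac cluster, below the minimum level, with a ratio of 3.95 when the 0 is taken as 3 UMIs and a lower limit of 3.02 from the binomial interval.

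Over the 11 pairs *Hbegf* was called higher in 9, *Pdgfa* in 7, and *Pdgfb* in 6, and none of the 9 members was called lower in any pair. Of all genes with the minimum level in a pair, between 2.28% and 14.2% were called higher. The counts and the number of pairs both depended on the settings. *Pdgfb* was called in 2 of 10 pairs with mitochondrial UMIs under 5%, in 4 of 10 with at least 300 UMIs per cell or without the highest scrublet scores, in 4 of 9 with 30 principal components, in 4 of 8 with joint clustering, and in 8 of 11 at resolution 0.8. *Hbegf* and *Pdgfa* were each called in 6 of 8 with joint clustering. The pairs in which *Hbegf* was not called were Co-Mac cluster 7 with VD-Mac cluster 9 (log2 ratio 0.98; 0.22 to 1.69) and the unnamed clusters 10 and 7, where 0 UMIs in Co-Mac stood against 9 in VD-Mac, a ratio of 1.40 with the 0 taken as 3 UMIs, and the interval includes no change. Of the 6 calls of *Pdgfb*, those in clusters 10 and 7 (unnamed) and in clusters 11 and 11 (basophil or mast cell-like) rested on 3 UMIs in Co-Mac, with log2 ratios of 1.22 (-0.60 to 3.65) and 1.31 (-1.26 to 4.08). *Pdgfc* did not reach the minimum in any pair, and its interval lay below 0 in 4 of them. *Areg*, *Ereg*, *Egfr*, *Pdgfra*, and *Pdgfrb* were below the minimum in all 11.

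**Figure D2:**
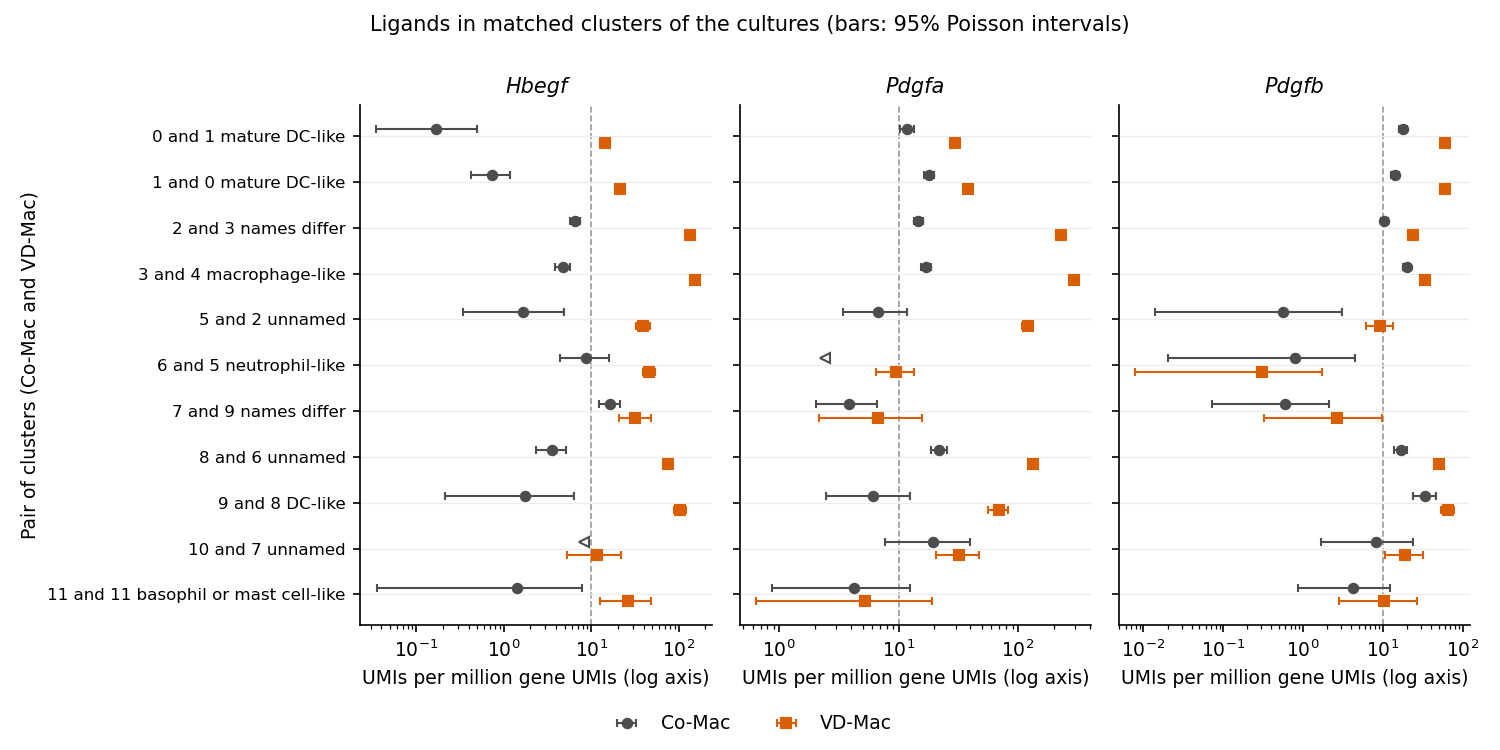
Levels of *Hbegf*, *Pdgfa*, and *Pdgfb* in CPM on a log axis in 11 pairs of Co-Mac and VD-Mac clusters, with 95% counting intervals. In the macrophage-like pair *Hbegf* lay at 4.77 and 152 CPM and *Pdgfb* at 20.0 and 33.9 CPM.

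The 3 ligands raised in VD-Mac were also read for their presence in the same cells. *Hbegf* and *Pdgfa* were found together in 2112 of 8825 cells (23.9%), where the product of their shares is 14.1%. After thinning to 2000 UMIs, 231 of 7676 cells held both (3.01%; product 1.66%), 597 *Hbegf* without *Pdgfa*, and 947 *Pdgfa* without *Hbegf*. *Hbegf* and *Pdgfb* were found together in 13.9% of cells, against a product of 11.0%, but after thinning in 44 of 7676 (0.573%), against 0.790%. *Pdgfa* and *Pdgfb* were found together in 17.0%, against 12.7%, but after thinning in 69 of 7676 (0.899%), against 1.12%. Thinning left out the 1149 cells under 2000 UMIs. The cells that remained gave, unthinned, 27.4%, 16.0%, and 19.5% for these combinations, against products of 17.8%, 14.2%, and 16.3%, so only *Hbegf* with *Pdgfa* was above the product both before and after thinning. Cell class differs between these cells, and its part in the overlap was not tested.

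In the graft, clusters were read for the level of each member in every class. In the main clustering *Hbegf* was highest in the macrophage-like cluster 2, led by *Ccl8* and *Cd163*, at 896 CPM (871 to 923), and this cluster of 373 cells held 50.7% of the UMIs of *Hbegf* in the graft. Its level in macrophage-like cells was 758 CPM with at least 300 UMIs per cell, 769 CPM with mitochondrial UMIs under 5%, 757 CPM without the highest scrublet scores, and 554 CPM with 30 principal components, and the order of the classes was not read under these settings. Cluster 3, unnamed and led by *Mmp12*, *Spp1*, and *Gpnmb*, followed at 570.4 CPM (548 to 593). Next came the endothelial-like cluster 11 at 394 CPM (345 to 449) in 25 cells, the monocyte-like cluster 1 at 248 CPM (231 to 266), and the fibroblast-like cluster 5 at 188 CPM (174 to 202). None of these neighbours in the order had overlapping intervals. The neutrophil-like cluster 0 had 106 CPM (88.2 to 127), and the T cell-like clusters 6 and 4 had 50.5 and 21.3 CPM, with 25.5 CPM (15.1 to 40.4) in cluster 6 without its highest cell. In the endothelial-like cluster 53 of 227 UMIs came from 1 cell, and without it the level was 336 CPM (288 to 390).

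After thinning to 2000 UMIs, *Hbegf* was found in 208 of 338 cells of the macrophage-like cluster (61.5%; 56.1 to 66.8) and in 97 of 210 cells of cluster 3 (46.2%). In T cell-like clusters 4 and 6, taken as a class with little *Hbegf*, it was found in 11 of 295 cells (3.73%). Unthinned cells, with medians of 11921, 15854, and 5552 UMIs, gave shares of 81.5%, 73.3%, and 7.97%.

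*Areg* had a different pattern, since T cell-like and basophil or mast cell-like clusters stood above myeloid ones. In cluster 12, basophil or mast cell-like with 13 cells, it reached 5711 CPM (5135 to 6335), but 216 of its 358 UMIs came from 1 cell. Without that cell the level was 2549.9 CPM (2148 to 3005), still the highest among the clusters. The T cell-like cluster 6, led by *Il17a* and *Trdc*, had 657 CPM (598 to 719), and 485 CPM (435 to 539) without its highest cell. The T cell-like cluster 4 had 353 CPM (320 to 389), and 273 CPM (243 to 304) without its highest cell. The cluster led by *Il17a* was thus above the other T cell-like cluster with or without these cells.

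The B lineage-like cluster 8 had 229 CPM of *Areg*, of which 123 of 184 UMIs came from 1 cell, and 79.8 CPM (61.1 to 103) without it. Among myeloid clusters the level was 135 CPM (123 to 148) in the monocyte-like cluster 1, 82.6 CPM in the mature DC-like cluster 7, 55.2 CPM in cluster 3, and 39.3 CPM in the macrophage-like cluster 2. With all cells counted, neighbours in the order of *Areg* did not overlap down to the mature DC-like cluster. Without the highest cell of each, however, the monocyte-like cluster (113 CPM; 101 to 125) lay above the B lineage-like one, with intervals that overlap. After thinning, *Areg* was found in 28 of 122 cells of the T cell-like cluster 6 (23.0%), 21 of 173 of cluster 4 (12.1%), and 3 of 319 of the neutrophil-like cluster 0 (0.940%). All cells unthinned, with medians of 5520, 5552, and 2264 UMIs, gave 28.5%, 17.4%, and 1.05%. The share of cells was therefore modest even where the level was high, with many UMIs in few cells.

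*Ereg* was highest in the fibroblast-like cluster 5, at 89.95 CPM (80.5 to 100.2), with 329 of its 442 graft UMIs. These came from 15 of 145 cells, and 123 came from 1 cell. Without that cell the level was 57.2 CPM (49.7 to 65.6). *Ereg* also had 27 UMIs in the neutrophil-like cluster 0 (23.5 CPM; 15.5 to 34.2) and 63 in cluster 3 (14.3 CPM; 11.0 to 18.3), and these intervals overlap. In the neutrophil-like cluster 11 of the 27 UMIs came from 1 cell, and 14.0 CPM (7.98 to 22.7) remained without it. After thinning it was found in 6 of 141 fibroblast-like cells (4.26%; 1.58 to 9.03) but in none of the 295 T cell-like ones, a count of 0 that allows a share of up to 1.02%. Unthinned, at medians of 24700 and 5552 UMIs, it was in 10.3% and 0.332% of them.

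The cell with the most *Ereg*, singled out after its values were seen, had 58535 UMIs, 123 of *Ereg*, 37 of *Areg*, 21 of *Egfr*, and 13 of *Hbegf*. It carried 8 of 8 fibroblast markers with 5276 UMIs, 4 UMIs of macrophage markers, and 0 of T cell markers. It was among the cells with the highest scrublet scores, and whether it was a doublet was not tested.

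In the main clustering *Pdgfa* was highest in the macrophage-like cluster 2 of the graft, at 96.6 CPM (88.3 to 105). Its level in macrophage-like cells was 73.8 CPM with at least 300 UMIs per cell, 72.0 CPM with mitochondrial UMIs under 5%, 73.9 CPM without the highest scrublet scores, and 60.7 CPM with 30 principal components, and the order of the classes was not read under these settings. The endothelial-like cluster 11 (62.5 CPM; 43.8 to 86.5), the monocyte-like cluster 1 (61.0 CPM; 52.7 to 70.1), the fibroblast-like cluster 5 (51.1 CPM; 44.1 to 59.0), the B lineage-like cluster 8 (46.1 CPM), and cluster 3 (45.9 CPM; 39.8 to 52.7) followed with intervals that overlap between neighbours. In fibroblast-like cells 63 of 187 UMIs came from 1 cell, and 34.3 CPM (28.5 to 40.9) remained without it. Without their highest cells the endothelial-like cluster had 40.6 CPM (25.1 to 62.0) and the B lineage-like cluster 28.4 CPM (17.8 to 43.0). All 22 UMIs of *Pdgfa* in the T cell-like cluster 6 came from 1 cell. *Pdgfa* was found in 63 of 338 thinned macrophage-like cells (18.6%) and 2 of 295 T cell-like cells (0.678%), or in 44.0% and 1.99% without thinning.

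The leading class of *Pdgfb*, in contrast, was the endothelial-like cluster 11, at 181 CPM (148 to 219) with UMIs in 20 of 25 cells. Without its highest cell the level there was 149.8 CPM (119 to 186). Cluster 3 followed at 46.1 CPM (40.0 to 52.9) and the macrophage-like cluster 2 at 24.8 CPM (20.7 to 29.5). Fibroblast-like cells had 1 UMI of *Pdgfb* and the neutrophil-like clusters 0 and 9 had 0, which allows up to 2.01 CPM. The B chain was thus counted mainly in endothelial-like and myeloid clusters and hardly in the fibroblast-like one. After thinning it was found in 5 of 25 endothelial-like cells (20.0%; 6.83 to 40.7), 20 of 210 cells of cluster 3 (9.52%), and 2 of 295 T cell-like cells (0.678%), or in 80.0%, 36.9%, and 2.99% without thinning.

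In the main clustering *Pdgfc* had, of the 6 ligands, the largest share of its graft UMIs in the macrophage-like cluster, with 346 of 453 (76.4%) at 67.0 CPM (60.1 to 74.5). This level depended on how the class was drawn, and was 41.8 CPM with at least 300 UMIs per cell, 35.2 CPM with mitochondrial UMIs under 5%, 42.0 CPM without the highest scrublet scores, and 20.8 CPM with 30 principal components. The B lineage-like cluster 8 (15.0 CPM; 7.73 to 26.1), cluster 3 (11.4 CPM; 8.43 to 15.0), and the fibroblast-like cluster 5 (8.48 CPM; 5.76 to 12.0) followed with overlapping intervals. In the B lineage-like cluster 7 of 12 UMIs came from 1 cell, and 6.46 CPM (2.10 to 15.1) remained without it. Among thinned cells 39 of 338 macrophage-like ones held it (11.5%) and 0 of the 295 T cell-like ones (limit 1.02%), or 44.2% and 0% without thinning. *Pdgfc* thus stayed below the minimum level in both cultures but was counted in the graft cluster led by *Ccl8* and *Cd163*. *Hbegf*, *Pdgfa*, and *Pdgfb*, in contrast, were counted above that level in both VD-Mac and that cluster.

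**Figure D3:**
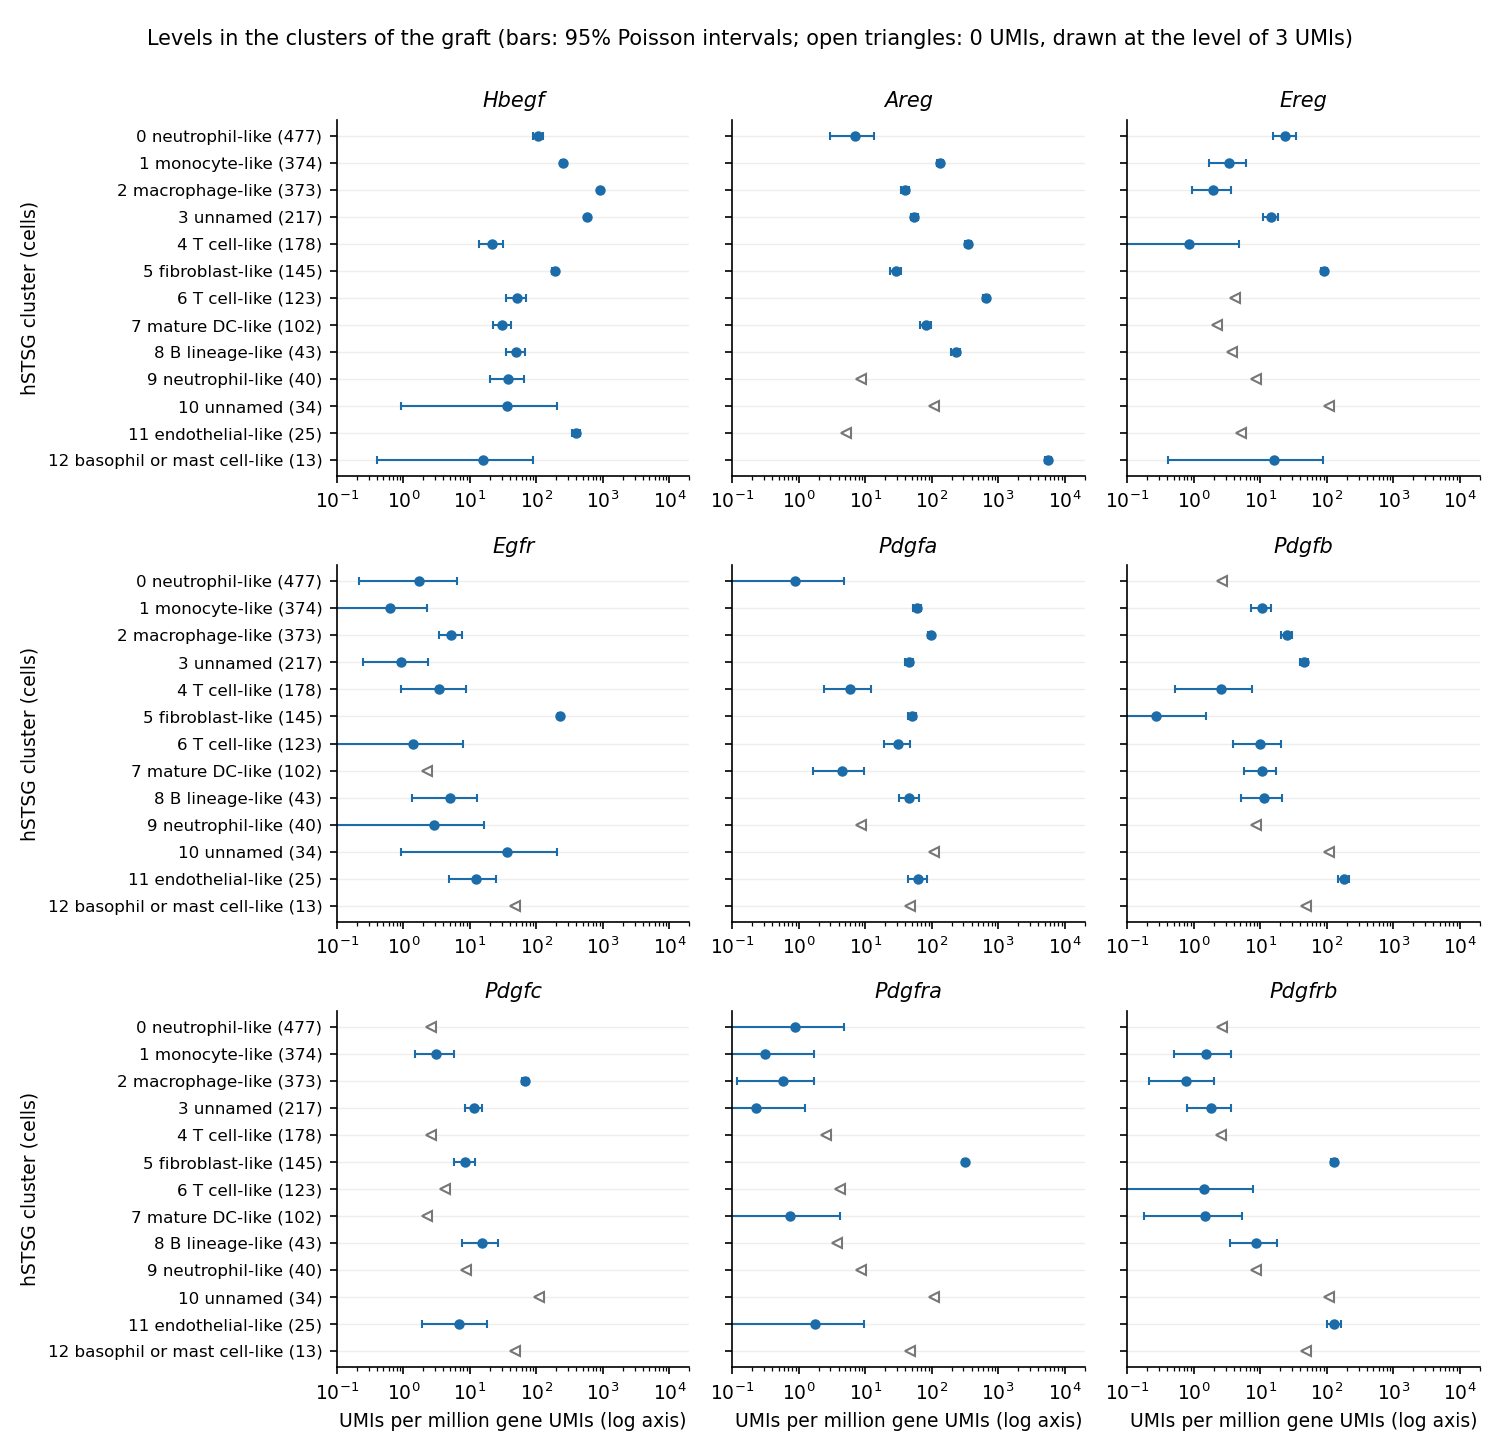
Level of each of the 9 genes in CPM on a log axis in the 13 hSTSG clusters, with 95% counting intervals and open triangles at the level of 3 UMIs where a cluster had 0. *Pdgfra* stood at 313 CPM in the fibroblast-like cluster and *Hbegf* at 896 CPM in the macrophage-like cluster.

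The receptors were concentrated in the fibroblast-like cluster 5, whose 145 cells carried 8 of 8 fibroblast markers at a summed 63009 CPM, against 145 CPM in the other graft cells, with *Col3a1* as the most abundant. *Pdgfra* stood at 313 CPM there (295 to 331), which was 99.3% of its UMIs in the graft, and no other cluster had more than 3 UMIs of it. *Egfr* stood at 226 CPM (211 to 242), or 94.0% of its UMIs. It was next at 12.2 CPM (4.89 to 25.0) in the endothelial-like cluster 11 (7.82 CPM, 2.13 to 20.0, without its highest cell) and 5.23 CPM (3.45 to 7.61) in the macrophage-like cluster 2, apart from 1 UMI in the shallow cluster 10. *Pdgfrb* stood at 129 CPM (117 to 141), or 82.3% of its UMIs.

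With all cells counted, *Pdgfrb* was as high in the endothelial-like cluster 11, at 128.5 CPM (101 to 161). This did not differ from the fibroblast-like cluster beyond the counting intervals. The 74 UMIs of *Pdgfrb* in cluster 11 came from 4 of 25 cells, with 36 in 1 cell. Without that cell the level was 76.6 CPM (54.2 to 105). The fibroblast-like cluster without its own highest cell had 122 CPM (111 to 134), so these intervals did not overlap. PDGFRB is a known receptor of pericytes, so the markers of pericytes and smooth muscle were read there. All 7 of 7 were detected with a summed level of 1151 CPM, against 113 CPM in the other graft cells, and *Rgs5* was the most abundant at 729 CPM. Those other cells include the fibroblast-like cluster. It held *Acta2* at 213 CPM and *Tagln* at 158 CPM, above 38.2 and 29.5 CPM in the endothelial-like cluster. Its levels of *Rgs5* (72.2 CPM) and of the remaining markers were lower than in the endothelial-like cluster. All 4 cells with *Pdgfrb* also held *Rgs5* and the endothelial marker *Cdh5*, which was found in all 25 cells. The part of pericytes or of doublets in this level was not tested.

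After thinning to 2000 UMIs, *Pdgfra* was found in 61 of 141 fibroblast-like cells (43.3%; 35.0 to 51.9) whereas 0 of the 295 T cell-like ones held it, a limit of 1.02%. *Egfr* was found in 41 of 141 (29.1%; 21.7 to 37.3) and 3 of 295 (1.02%). *Pdgfrb* was found in 28 of 141 (19.9%; 13.6 to 27.4) and 1 of 295 (0.339%). Unthinned fibroblast-like cells, with a median of 24700 UMIs, gave 88.3%, 82.8%, and 73.8%, and T cell-like cells, with 5552, gave 0%, 1.66%, and 0.332%. Nothing is read from the gap, since the receptors were chosen by their levels in fibroblasts.

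The receptors were also read for their presence in the same fibroblast-like cells. Unthinned, *Pdgfra* and *Pdgfrb* were found together in 100 of 145 cells, *Pdgfra* alone in 28, *Pdgfrb* alone in 7, and neither in 10. *Egfr* and *Pdgfra* were found together in 116 cells, with 4 holding *Egfr* alone and 12 *Pdgfra* alone. *Egfr* was also found with its ligand *Hbegf* in 76 cells, and without it in 44. Neither *Egfr* nor *Pdgfra* was found in 13 cells. The shares found together were 69.0% for both PDGF receptors and 80.0% for *Egfr* with *Pdgfra*. Both lay above the products of the separate shares, 65.1% and 73.1%. After thinning, *Pdgfra* and *Pdgfrb* were found together in 13 of 141 cells (9.22%; product 8.59%), *Egfr* and *Pdgfra* in 18 (12.8%; product 12.6%), and *Egfr* and *Hbegf* in 9 (6.38%; product 7.01%).

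Fibroblast-like cells were set against the other graft cells for all genes with at least 10 CPM in either group. *Pdgfra* stood at 313 CPM against 0.421 CPM, a log2 ratio of 9.54 (8.55 to 10.75). *Egfr* stood at 226 against 2.79 CPM (log2 ratio 6.34; 5.94 to 6.77), and *Pdgfrb* at 129 against 5.32 CPM (log2 ratio 4.60; 4.28 to 4.92). With each cell weighted equally the log2 ratios were 8.40 for *Pdgfra*, 5.94 for *Egfr*, and 6.14 for *Pdgfrb*. *Ereg* stood at 89.95 against 5.95 CPM (log2 ratio 3.92; 3.61 to 4.24), or 3.27 on the log2 scale without its highest cell and 2.83 with each cell weighted equally. All 3 receptors and 1 ligand were thus called higher, 4 of 9 members, among 1762 of 9012 genes called higher (19.6%), and nothing is read from this share. In this comparison these 4 members reached the minimum in fibroblast-like cells and not in the pooled other graft cells. Single clusters among those other cells did reach it for *Pdgfrb*, *Egfr*, and *Ereg*, but none did for *Pdgfra*. In the endothelial-like cluster 11 *Pdgfrb* stood at 128.5 CPM and *Egfr* at 12.2 CPM, and in the neutrophil-like cluster 0 *Ereg* stood at 23.5 CPM.

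The other ligands went the opposite way or, with all cells counted, did not differ. *Hbegf* stood at 188 against 445 CPM (log2 ratio -1.24; -1.36 to -1.13), *Areg* at 28.7 against 128 CPM (-2.15; -2.45 to -1.87), with 18.9 CPM in fibroblast-like cells without the highest cell, and *Pdgfc* at 8.48 against 22.2 CPM (-1.39; -1.97 to -0.86). *Pdgfb* had 1 UMI against 502, a log2 ratio of -6.60 (-11.90 to -4.11), or -4.22 with at least 300 UMIs per cell. These 4 were called lower, as were 2251 of 9012 genes (25%), from which nothing is read. *Pdgfa* was neither, at 51.1 against 53.0 CPM (log2 ratio -0.05; -0.29 to 0.17). In fibroblast-like cells 63 of its 187 UMIs came from 1 cell, and 34.3 CPM (28.5 to 40.9) remained without it. With each cell weighted equally, *Hbegf* and *Pdgfc* were no longer called lower, at log2 ratios of -0.89 and -0.85.

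Genes around the members in the pathway were read from 9 lists of 72 genes. Between the cultures 40 of them reached the minimum level, of which 1 was called higher in VD-Mac (2.50%), 4 lower (10.0%), and 35 neither, where 2.16% of all genes with that level were called higher and 358 of 7732 lower (4.63%). The median of their log2 ratios was -0.17 after adding 1 CPM to both levels, against -0.10 over all genes with the minimum level. The gene called higher was *Sdc1*, a proteoglycan that binds heparin-binding ligands, at 12.2 CPM in Co-Mac and 30.1 CPM in VD-Mac. Those called lower were the receptor of urokinase *Plaur* (122 to 33.5 CPM), the HB-EGF co-receptor *Cd44* (217 to 73.0 CPM), and the metalloproteases *Adam8* (144 to 57.1 CPM) and *Adam15* (58.0 to 25.7 CPM). None of the 9 early response genes downstream of the kinase ERK that reached the minimum was called, and their median log2 ratio was 0.42, with the largest ratio in *Ier3*, 1.96-fold higher in VD-Mac and named after its value was seen.

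In fibroblast-like cells of the graft 60 of the 72 reached the minimum level, with 17 higher than in the other graft cells (28.3%), 16 lower (26.7%), and 27 neither, where 19.6% of all genes were called higher and 25% lower. The median log2 ratio was -0.06, against -0.23 over all genes. Other PDGF genes were both higher, the ligand *Pdgfd* at 18.0 against 0.474 CPM and the receptor-like *Pdgfrl* at 59.6 against 2.42 CPM. Of the 9 sheddases and their regulators 3 were higher, the sheddase-family *Adam12* (86.7 against 2.21 CPM) and the regulators *Rhbdf1* (26.5 against 1.53 CPM) and *Timp3* (186 against 33.8 CPM). In the same list 2 were lower, *Adam8* (12.3 against 482 CPM) and the regulator *Rhbdf2* (8.75 against 91.7 CPM). Of 7 genes that process or bind PDGF, *Sparc* (10821 against 161 CPM), *Plat* (346 against 8.74 CPM), and *Lrp1* (753 against 154 CPM) were higher, and *Furin* (65.1 against 272 CPM) and *Plaur* (75.5 against 455 CPM) lower.

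Of 16 feedback inhibitors of these receptors 15 reached the minimum, with 5 higher in fibroblast-like cells (33.3%) and 4 lower (26.7%). Of 12 ERK target genes 11 reached it, with 4 higher (36.4%) and 1 lower (9.09%). Over all genes 19.6% were called higher and 25% lower, and nothing is read from these shares. The ERK target genes called higher were *Myc* (162 against 12.6 CPM), *Egr1* (2505 against 576 CPM), *Fos* (1795 against 536 CPM), and *Phlda1* (832 against 250.5 CPM). The gene called lower was *Ier3* (903 against 1935 CPM). The called feedback inhibitors with the largest ratios were *Lrig3* (11.8 against 1.05 CPM), *Spry2* (116 against 10.8 CPM), *Spry4* (12.9 against 2.37 CPM), and *Errfi1* (512 against 197 CPM), and those called lower *Dusp5* (33.9 against 285 CPM), *Cbl* (33.9 against 183 CPM), *Dusp4* (5.19 against 23.6 CPM), and *Ptpn1* (54.1 against 163 CPM). Of 11 adaptors and first kinases 0 were higher and 5 lower, among them *Plcg2* (1.09 against 35.2 CPM), *Grb2* (62.1 against 297 CPM), *Gab2* (14.8 against 43.9 CPM), and *Gab1* (16.1 against 42.6 CPM). Of 4 HB-EGF co-receptors *Cd9* was lower (127 against 472 CPM). The other EGF-family ligand that reached the minimum, *Nrg1*, was lower (14.2 against 179 CPM), and *Erbb2*, *Erbb3*, and *Erbb4*, the sister receptors of EGFR, stayed below it in both comparisons.

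Genes with a pattern most like that of each member were sought over the 31 clusters with at least 50 cells, among 6757 genes, by Pearson's r of log levels. The clusters share 3 libraries and differ in depth, and r is given as a description. *Pdgfra* was followed most closely by *Cd248*, *Scara5*, and *Tshz2* (r of 1.00 for each), *Egfr* by *Pcolce* (0.991), *Vegfd* (0.991), and *Dpysl3* (0.990), and *Pdgfrb* by *Lgi2*, *Cthrc1*, and *Prg4* (0.994 for each). All 3 receptors stood far above the other clusters in the fibroblast-like one, and r without it was not computed. *Hbegf* was most like *Selenop* (0.839), *Ms4a7* (0.826), and *Tiparp* (0.815), and *Pdgfc* most like *Fcna* (0.882), *Etv1* (0.879), and *Ch25h* (0.874). *Areg* was most like *Samd11* (0.945), *Atp2b4* (0.933), and *Isy1* (0.929), and *Ereg* most like *Tnfaip6* (0.966), *F3* (0.948), and *Col15a1* (0.932). *Pdgfa* (*4931406C07Rik* 0.746, *Dennd6a* 0.726, *Lifr* 0.709) and *Pdgfb* (*Dennd6a* 0.788, *Ly86* 0.777, *Hipk2* 0.766) had the lowest values and shared 1 gene. Between members r was 0.638 for *Pdgfa* with *Pdgfb*, 0.553 for *Hbegf* with *Pdgfa*, and 0.990 for *Pdgfra* with *Pdgfrb*.

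In the genome 4 of the members lie on chromosome 5, namely *Pdgfra* (75152292 to 75198215, plus strand), *Ereg* (91074622 to 91093646, plus strand), *Areg* (91139599 to 91148432, plus strand), and *Pdgfa* (138976014 to 138997370, minus strand). *Ereg* and *Areg* are neighbours, with 46.0 kb between the end of one and the start of the other, yet their leading graft clusters were different. *Egfr* lies on chromosome 11 (16752203 to 16918158, plus strand), *Pdgfb* on chromosome 15 (79995874 to 80014977, minus strand), and *Pdgfc* on chromosome 3 (81036416 to 81214040, plus strand). The antisense gene *6330403L08Rik* overlaps *Pdgfa*, and it had 115 UMIs in Co-Mac, 352 in VD-Mac, and 54 in hSTSG.

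Promoter sequences from RefSeq (GRCm38.p6), 250 bases before to 50 after each start of transcription, were found for 5 of the 9 members, in 6 windows, among 32851 promoters. *Hbegf*, *Ereg*, *Pdgfb*, and *Pdgfrb* had no entry. The windows were searched on both strands for TGACGTCA, the cAMP response element, and its core TGACG, for the AP-1 motifs TGAGTCA and TGACTCA, for TATAAA, and for the kind of motif the vitamin D receptor binds, AGGTCA or GGTTCA followed by either of them with 3 bases between. Shown are both windows of *Pdgfa*, as the ligand raised in VD-Mac that has an entry, and that of *Areg*, as a ligand near 0 in the cultures and high in the graft, each 5′ to 3′ with matches in capitals.
*Areg*, chr5:91139349-91139648, plus strand: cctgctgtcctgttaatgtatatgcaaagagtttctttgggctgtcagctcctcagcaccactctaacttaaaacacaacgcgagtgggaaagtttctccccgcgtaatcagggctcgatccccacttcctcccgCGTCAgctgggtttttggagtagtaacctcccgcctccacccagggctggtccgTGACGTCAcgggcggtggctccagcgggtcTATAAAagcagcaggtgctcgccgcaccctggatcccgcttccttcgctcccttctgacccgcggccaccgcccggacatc
*Pdgfa*, chr5:138994895-138995194, minus strand: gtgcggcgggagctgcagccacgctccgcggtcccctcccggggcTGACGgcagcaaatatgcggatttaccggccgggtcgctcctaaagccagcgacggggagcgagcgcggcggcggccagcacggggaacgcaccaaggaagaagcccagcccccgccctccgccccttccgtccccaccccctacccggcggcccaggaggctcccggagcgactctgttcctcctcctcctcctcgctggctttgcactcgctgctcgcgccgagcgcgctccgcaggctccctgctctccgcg
*Pdgfa*, chr5:138994232-138994531, minus strand: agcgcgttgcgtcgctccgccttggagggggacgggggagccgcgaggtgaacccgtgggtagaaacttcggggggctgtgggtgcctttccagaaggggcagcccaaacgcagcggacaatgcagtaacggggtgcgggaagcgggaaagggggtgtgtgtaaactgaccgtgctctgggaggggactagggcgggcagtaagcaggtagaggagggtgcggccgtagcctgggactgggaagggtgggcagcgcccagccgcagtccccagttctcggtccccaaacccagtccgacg
The *Areg* window held TGACGTCA once, from base 190, which is in 1.79% of all promoters of this length. It held TGACG at bases 136, 190, and 193 (in 20.8% of promoters), of which the last 2 lie within TGACGTCA, and TATAAA at base 220 (in 13.6%). The first *Pdgfa* window held TGACG at base 46, and the second none of the motifs. The vitamin D receptor motif was in 0 of the 6 windows and in 5 of all promoters (0.0152%), and the AP-1 motifs were in 0 of the 6 and in 5.20% of all. A window without a match says only that these letters are not in it.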

How the data were processed

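The authors deposited raw UMI counts per mouse gene and barcode from 10x Single Cell 3′ v3 libraries, made with Cell Ranger 3.1.0 per the file headers and not normalized. The labels name mm9 as the build and feature IDs are mouse Ensembl genes, so the authors' build is unclear, and positions here come from GENCODE on GRCm38. Hashtag antibody counts were left out of all totals. Cells were filtered as described, and clustering used Seurat 5.3.0 (R 4.3.3, Matrix 1.6.5): log normalization to 10000 UMIs, 2000 variable genes without members, listed and mitochondrial genes, 15 principal components, 15 neighbours, and resolution 0.5. Each cluster took its name from the marker set that scored highest as a mean of log2 ratios (5 CPM added, score of 0.5 or more, at least 3 markers detected). Clusters with few UMIs, or with a second set that also scored 0.5 or more, stayed unnamed unless a marker of the best set was among their 10 leading genes. This naming rule was settled in earlier work after clusters were seen. Clusters were paired by at least 2 shared leading genes. Levels, ratios, and intervals were computed in Python 3.11.15 with NumPy 2.4.6, pandas 2.3.3, and SciPy 1.17.1, scrublet was run in scanpy 1.11.5 with anndata 0.12.19, and figures were drawn in matplotlib 3.10.9. Ratios were tested on simulated data. The members and lists were chosen with earlier results of these data known. Named were all members, up to 4 called genes per list and direction, and the 3 most alike genes with at least 50 CPM in a cluster (r of log2 CPM with 5 added). Alternatives covered filters, doublets, resolution, principal components, joint clustering, scaling, make-up, equal cell weight, thresholds, and thinning. Leaving out shared barcodes, the cell with the most *Ereg*, the highest cell for each member and cluster, and, for cells with a pair of members, those under 2000 UMIs were chosen after seeing the data. Velocity, wound, and imaging data were not used.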

Additional observations from a re-analysis of the deposited data

Results flagged for a closer look

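The graft library also held 1195935 UMIs of hashtag antibodies, which the comparisons above do not use. They stood out because this is a signal outside the gene counts, above the limit that a count of 0 allows. No map from hashtags to mice is given, so the levels of the 9 genes could not be split by mouse.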

How the results depend on the processing

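No paired or replicate-based analysis was possible, because each condition had 1 library. Of 183 alternatives for single values, 130 stayed within the counting interval, 53 moved, and 0 reversed beyond it. The 130 include log2 ratios under changed call thresholds, which could not move, since a threshold does not enter a ratio. Within its interval, the log2 ratio of *Pdgfa* in fibroblast-like cells changed sign, from -0.05 to as much as 0.15. Of 85 for counts and main values, 77 were classed as the same and 8 as moved. Counts classed as the same could still differ. With the mean over cells 386 genes were called between the cultures, against 525, and at 50 CPM 2 members were called, against 3. The 8 that moved are these. Genes called between the cultures came to 1449 with a call at 1.5-fold, 3185 with no minimum level, and 215 with at least 50 CPM, and members called to 7 with no minimum level. *Pdgfb* was called higher in 2 pairs with mitochondrial UMIs under 5%. Members lower in fibroblast-like cells came to 2 with the mean over cells. The share of VD-Mac cells with a UMI of *Hbegf* was 5.73% thinned to 1000 UMIs and 34.9% with no thinning, against 10.8% at 2000. Looser or stricter limits change the first of these by construction. Thinning to fewer UMIs likewise lowers a share within the same cells, though the cells left out also differ. For the others the cause was not tested.

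Over the alternatives run, the log2 ratio between the cultures ranged from 3.58 to 4.46 for *Hbegf*, 2.71 to 3.30 for *Pdgfa*, and 1.52 to 1.88 for *Pdgfb*, all above 2-fold, though *Pdgfb* at 42.9 CPM missed the minimum of 50 CPM. In the macrophage-like pair the ranges were 4.60 to 5.01, 4.01 to 4.26, and 0.56 to 1.21, but no such pair was found with at least 300 UMIs per cell or without the highest scrublet scores, joint clusters were not named, and resolution 0.8 gave 2 such pairs, which were summed. In fibroblast-like cells they were 8.40 to 9.61 for *Pdgfra*, 5.94 to 6.74 for *Egfr*, 4.48 to 6.14 for *Pdgfrb*, and 2.83 to 3.96 for *Ereg*. In the macrophage-like graft cells *Hbegf* ranged from 554 to 970 CPM and *Pdgfc* from 20.8 to 67.0 CPM, both lowest with 30 principal components. With median-of-ratios scaling the culture ratios were 4.15, 3.30, and 1.80. Depth limits the small graft clusters, where 13 or 25 cells carry a level, and members below 10 CPM in the cultures.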
